A study of Mus musculus with 11 samples.

Results

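Chromatin accessibility was examined at 5 mouse genes whose transcription follows fibroblast growth factor (FGF) and MEK signalling: Dusp6, Spry2, Spry4, Etv5 and Egr1. Members were all regions of the ATAC-seq count table whose start (GRCm38) fell in a fixed window around one of these genes. From the first to the last region they spanned chr10:99241978-99289725 at Dusp6, chr14:105870017-105906218 at Spry2, chr18:38572061-38609893 at Spry4, chr16:22372414-22458386 at Etv5 and chr18:34854845-34873569 at Egr1. This gave 59 regions of 248336: 12 at Dusp6, 10 at Spry2, 10 at Spry4, 23 at Etv5 and 4 at Egr1. All 59 passed the filter on low counts. The window rule used coordinates only, although the windows were chosen with earlier results of these data known. A region was a member whichever gene it may act on.

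Accessibility was measured in 11 libraries of 4 lines of mouse embryonic stem cells, each named here by its genotype. B6 was C57BL/6J (line B6 5-1, 3 libraries), D2 was DBA/2J (line D2 5-5, 3 libraries), B6-13D2 was B6.D2-(rs30079041-rs51756099)/Bakr (line QJ 6-1, 2 libraries) and D2-13B6 was D2.B6-(rs29224292-rs13469455)/Bakr (line XE 2-4, 3 libraries). In each of the last 2 lines an interval of chromosome 13 came from the other strain, and none of the 5 genes lies on that chromosome. The labels give different end markers for the 2 intervals, so they need not be the same segment. All 4 lines were grown with LIF, 15% serum, 1 μM of the MEK inhibitor PD0325901 and 3 μM of the GSK3 inhibitor CHIR99021, so the pathway was measured with MEK inhibited throughout. The labels call the libraries technical replicates of 1 cell line per genotype. Every error and p-value therefore covers only the variation among libraries made from 1 line, and strain, interval and line cannot be told apart.

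FGF ligands bind receptor tyrosine kinases, which act through adaptor proteins, RAS and RAF to activate MEK and then ERK. ERK induces transcription factors and also inhibitors of its own pathway, so the genes described here are both readouts and brakes of the signal. In mouse embryonic stem cells this pathway promotes exit from naive pluripotency, and a MEK inhibitor is part of the medium that holds cells in the naive state. ATAC-seq counts cuts of the Tn5 transposase in open DNA. It measures how open a region is and not transcription.

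Total counts per library were 15198496 to 27293140 in B6, 18807653 to 20022534 in B6-13D2, 34945034 to 39770267 in D2 and 29172484 to 43042955 in D2-13B6. In the 59 regions a library had 8 to 3292 counts, and 3 of the 649 values were under 10. Values are given as normalised CPM, counts scaled to a common TMM-adjusted library total, with the mean ± SD over libraries. The TMM factor was lowest in D2-13B6 replicate 2, at 0.7687, against 0.8945 to 1.102 in the other 10 libraries. A region is called different between lines at an adjusted p under 0.05 in edgeR's quasi-likelihood test, with Benjamini-Hochberg adjustment over all 246840 regions tested. The reads of the lines with a D2 genome were placed on a C57BL/6J build, and what that adds to differences between strains was not tested.

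The sequences of 4 regions outside promoters are shown because their differences were among the largest of the members and the results turn on them. The member with the largest decrease in D2-13B6 against B6, downstream of Spry2 (log2 -1.63), is not shown. Nor is a region 21046 bp upstream of Dusp6 with a large increase (log2 2.02), which held no AP-1 match. Each sequence is the 300 bases at the centre of its region, on the + strand of GRCm38. Capitals mark matches to the motifs that were searched on both strands: AP-1 (TGANTCA), ETS (CCGGAAG), octamer (ATGCAAA), ESRRB (AAGGTCA), TCF/LEF (ATCAAAG) and the CArG box, the element bound by serum response factor. The Etv5 region with capitals and the Dusp6 region were more open in D2-13B6 than in B6, and the other Etv5 region and the Spry2 region were less open.
Etv5 intron, chr16:22389232-22389531: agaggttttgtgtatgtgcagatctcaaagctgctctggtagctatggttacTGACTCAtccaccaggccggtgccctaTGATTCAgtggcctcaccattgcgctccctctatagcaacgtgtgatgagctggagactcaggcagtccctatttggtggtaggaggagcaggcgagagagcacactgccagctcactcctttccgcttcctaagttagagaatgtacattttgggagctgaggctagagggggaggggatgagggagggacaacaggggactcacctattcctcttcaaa
Etv5 intron, chr16:22394562-22394861: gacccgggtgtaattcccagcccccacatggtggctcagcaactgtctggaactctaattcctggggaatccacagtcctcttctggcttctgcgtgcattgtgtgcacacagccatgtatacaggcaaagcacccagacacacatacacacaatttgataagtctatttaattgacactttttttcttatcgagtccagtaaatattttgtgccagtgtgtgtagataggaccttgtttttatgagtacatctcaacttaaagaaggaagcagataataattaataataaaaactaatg
Dusp6 upstream, chr10:99250806-99251105: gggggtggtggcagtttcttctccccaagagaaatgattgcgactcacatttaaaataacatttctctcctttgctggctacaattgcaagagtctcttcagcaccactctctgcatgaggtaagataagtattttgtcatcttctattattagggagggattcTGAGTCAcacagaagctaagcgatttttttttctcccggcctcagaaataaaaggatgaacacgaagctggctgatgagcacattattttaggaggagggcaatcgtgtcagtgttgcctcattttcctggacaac
Spry2 upstream, chr14:105900891-105901190: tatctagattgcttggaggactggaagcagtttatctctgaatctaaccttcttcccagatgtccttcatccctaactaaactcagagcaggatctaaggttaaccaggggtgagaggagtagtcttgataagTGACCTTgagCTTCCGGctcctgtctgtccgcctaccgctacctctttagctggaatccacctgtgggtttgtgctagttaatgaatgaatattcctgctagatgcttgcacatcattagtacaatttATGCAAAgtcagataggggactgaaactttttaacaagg

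The Etv5 region that was more open in D2-13B6 held 2 AP-1 matches, TGACTCA and TGATTCA. The Dusp6 region held 1, TGAGTCA. AP-1 is the family of Fos and Jun dimers. The 300 bases shown of the less open Etv5 region, which is 2485 bp wide, held no match to any of the 6 motifs. The same was true of the central 300 bases of the region downstream of Spry2 that is not shown. The Spry2 region shown, upstream of the gene, held 1 ESRRB, 1 ETS and 1 octamer match, none overlapping another. The first 2 of these read on the − strand (TGACCTT and CTTCCGG). ETV5 belongs to the ETS family, and ESRRB and the octamer-binding OCT4 are factors of the naive state. A match is only a match of letters, and no binding was measured. Over all members, 8 of 59 regions (13.6%) held an AP-1 match in their central 300 bases, against 13.7% of all regions tested, and 1.72% of all regions held 2 or more. Members with an AP-1 match did not share a direction. Of the 8, 3 were called higher in D2-13B6 than in B6, these being the Dusp6 region, the Etv5 region with 2 matches and the Etv5 promoter (0.91). The other 5 had log2 fold changes from -0.63 to -0.21, and 2 of them, both at Etv5, were called lower (-0.58 and -0.63). The other motifs were found in 3 members for ETS (5.08%, against 3.03% of all regions), 5 for TCF/LEF (8.47% against 5.26%), 3 for octamer (5.08% against 7.32%), 3 for ESRRB (5.08% against 8.02%) and 1 for the CArG box (1.69% against 1.56%). Across the genome, among regions outside promoters, an AP-1 match was present in 38.9% of the 39176 called higher in D2-13B6 than in B6 and in 7.12% of the 43016 called lower, against 14.6% of all such regions.

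The 5 loci changed to different extents between the lines. None of the 59 regions was called between B6-13D2 and B6, where 0.474% of all regions were, and 4 had an unadjusted p under 0.05. Both edgeR and DESeq2 called 0. Between D2 and B6, 10 regions were called (16.9%, against 22.5% of all regions), 5 higher and 5 lower in D2, where 13.7% of all regions were higher and 8.8% lower. Between D2 and B6-13D2, which both carry the D2 interval, 10 were called (16.9% against 18.8%), 4 higher and 6 lower in D2 (11.6% and 7.24% of all regions). Between D2 and D2-13B6, 13 were called (22.0% against 23.7%), 7 higher and 6 lower in D2 (8.53% and 15.2% of all regions). These shares lay under the background of the whole table. The D2-13B6 line stood farthest from B6, with 31 of 59 regions called (52.5% against 41.7%). Of these, 11 were higher and 20 lower in D2-13B6 (21.6% and 20.1% of all regions). With a minimum fold of 1.5 this excess was gone, with 7 of the 59 called against 48265 of all 246840 regions. The members were wider, with a median of 887 bp against 548 bp, and all regions were not matched to them in width or level. The comparisons of D2 and of D2-13B6 with B6 share the B6 libraries. Without D2-13B6 replicate 2, 26 were called in the last comparison, 10 higher and 16 lower. The smaller counts rested on single libraries. For D2 against D2-13B6, 8 were called without D2 replicate 1. For D2 against B6, 6 were called without each of B6 replicate 1, B6 replicate 3 and D2 replicate 1, and 5 without B6 replicate 2. For D2 against B6-13D2, 6 were called without B6-13D2 replicate 1 and 2 without its replicate 2.

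The balance of higher and lower calls moved with the scaling. With total counts in place of TMM, D2 against D2-13B6 gave 18 higher and 3 lower (39470 and 29236 of all 246840 regions). D2 against B6 gave 5 higher and 9 lower (28292 and 32125). D2-13B6 against B6 gave 8 higher and 34 lower (41342 and 85687). Offsets fitted by loess on abundance were a choice added after the data were seen. With them the last 2 comparisons gave 3 higher and 8 lower (30970 and 25521 of all regions), and 6 higher and 22 lower (52326 and 47752). D2 against B6-13D2 gave 3 higher and 10 lower with them (26195 and 21583). Over all regions the median log2 fold change of D2-13B6 against B6 was -0.13 with TMM and -0.43 with total counts. With TMM it was 0.15 over promoter regions and -0.17 over other regions. The median over the 59 members was -0.36, and by locus it was 0.27 at Dusp6, -0.70 at Spry2, -0.34 at Spry4, -0.45 at Etv5 and 0.09 at Egr1.

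At the promoters, all 5 genes were more open in D2-13B6 than in B6 with TMM, 1.38-fold to 1.88-fold, and Etv5 and Egr1 were also more open in D2, although with loess offsets on abundance no promoter was called higher and 4 of the 5 lay below 0 in D2-13B6. These are the regions over the first annotated start of each gene, 3738 to 5650 bp wide. Across all promoter regions tested, 37.4% were called higher in D2-13B6 than in B6 and 24.8% were called higher in D2 than in B6. Those were not matched in level to the 5, each the most open promoter region of its gene. In all 5 the lowest D2-13B6 library and the lowest D2 library lay above the highest B6 library, which held in either direction for 49.0% and 38.3% of all regions in these comparisons. In none of the 5 did the difference between D2 and D2-13B6 pass edgeR's test, while DESeq2 called Dusp6 (log2 -0.43, adjusted p = 0.0393) and Etv5 (log2 -0.40, adjusted p = 0.0465). In bulk cells, fewer cells with the region open and a less open region in each cell cannot be told apart.

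Dusp6, Spry2 and Spry4 encode brakes of the pathway. Dusp6 encodes a phosphatase that dephosphorylates ERK, and its promoter region (chr10:99260954-99266603, UTR and coding exons) measured 44.8, 44.8 and 51.9 normalised CPM in B6, 47.1 and 46.1 in B6-13D2, 62.1, 58.5 and 67.4 in D2, and 74.6, 99.8 and 65.3 in D2-13B6. All D2 and D2-13B6 libraries were above all B6 and B6-13D2 libraries, and the D2 and D2-13B6 libraries overlapped. The log2 fold change of D2-13B6 against B6 was 0.76 ± 0.17 (SE, adjusted p = 0.000177), and that of D2 against B6 was 0.41 ± 0.17 (adjusted p = 0.0756, and 0.0362 with total counts).

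Spry2 encodes an inhibitor of RAS and RAF activation by receptor tyrosine kinases. Its promoter region (chr14:105894611-105900224, UTR) measured 47.4, 40.9 and 48.7 normalised CPM in B6, 46.3 and 46.8 in B6-13D2, 55.4, 48.8 and 64.4 in D2, and 66.3, 78.9 and 51.4 in D2-13B6. The lowest D2 library was only just above the highest B6 library, and D2-13B6 was again the most spread line. D2-13B6 exceeded B6 by a log2 fold change of 0.52 ± 0.17 (adjusted p = 0.0107), and without B6 replicate 2 it was 0.45 with an adjusted p of 0.08. Spry4, a second gene of the Sprouty family, had the lowest promoter signal of the 5, with normalised CPM of 26.7 ± 2.29 for B6, 23.6 ± 1.55 for B6-13D2, 32.6 ± 0.579 for D2 and 36.9 ± 5.62 for D2-13B6 (chr18:38600313-38604050, UTR). Its D2-13B6 libraries, at 36.2, 42.8 and 31.6, were all above the B6 libraries, at 24.7, 29.2 and 26.3. At Spry4 the fold change of D2-13B6 against B6 was 0.47 ± 0.16 on the log2 scale (adjusted p = 0.0176), with an adjusted p of 0.103 without B6 replicate 1 and 0.0671 without B6 replicate 3.

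Etv5 and Egr1 encode transcription factors. Etv5 is an ETS factor induced by FGF signalling, and its promoter region (chr16:22438118-22441883, UTR) had the largest difference of the 5. It measured 39.2, 36.3 and 39.5 normalised CPM in B6, 39.1 and 37.2 in B6-13D2, 62.4, 55.1 and 55.5 in D2, and 72.5, 85.7 and 57.6 in D2-13B6. The 5 libraries of B6 and B6-13D2 lay close together and well below the other 6. On the log2 scale the difference was 0.91 ± 0.17 for D2-13B6 against B6 (adjusted p = 7.66e-06) and 0.59 ± 0.17 for D2 against B6 (adjusted p = 0.00648). For D2 against B6 it was 0.55 without B6 replicate 2 and 0.53 without D2 replicate 1, with adjusted p of 0.0502 and 0.0507. Against B6-13D2 the D2 promoter was higher by 0.60 ± 0.19 (adjusted p = 0.0191), a call that was lost without either B6-13D2 library (adjusted p = 0.126 without replicate 1 and 0.188 without replicate 2) and without D2 replicate 1 (0.0889).

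Egr1 is an immediate early gene, switched on within minutes of ERK activation, and encodes a zinc finger factor. Its promoter region (chr18:34859430-34863229, UTR and coding exons) measured 50.6, 46.4 and 47.8 normalised CPM in B6, 48.9 and 45.9 in B6-13D2, 72.6, 61.1 and 67.9 in D2, and 82.3, 89.2 and 60.5 in D2-13B6. Again the groups split into B6 and B6-13D2 below and D2 and D2-13B6 above, with no overlap. On the log2 scale the difference was 0.68 ± 0.17 for D2-13B6 against B6 (adjusted p = 0.000696) and 0.48 ± 0.17 for D2 against B6 (adjusted p = 0.0321). The D2 against B6 call of Egr1 was lost with RLE size factors (adjusted p = 0.0558) and without 7 single libraries in turn: each B6 library, each B6-13D2 library, D2 replicate 1 and D2 replicate 3 (adjusted p = 0.0506 to 0.145).

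Per kb of region, the promoter of Egr1 was the most open in every line, with normalised CPM per kb of 12.7 for B6, 12.5 for B6-13D2, 17.7 for D2 and 20.4 for D2-13B6. Etv5 followed with 10.2, 10.1, 15.3 and 19.1 in the same order of lines. Dusp6 had 8.35, 8.25, 11.1 and 14.1, and Spry2 was below Dusp6 in every line except B6-13D2, with 8.14 in B6, 8.29 in B6-13D2, 10 in D2 and 11.7 in D2-13B6. Spry4 was the least open, with 7.15, 6.3, 8.73 and 9.87. In each gene D2-13B6 had the highest mean and D2 the next, with overlapping libraries. B6 and B6-13D2 overlapped at 4 of the 5, and at Spry4 both B6-13D2 libraries lay just below the lowest B6 library (log2 -0.18 ± 0.19, adjusted p = 0.921).

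**Figure D1:**
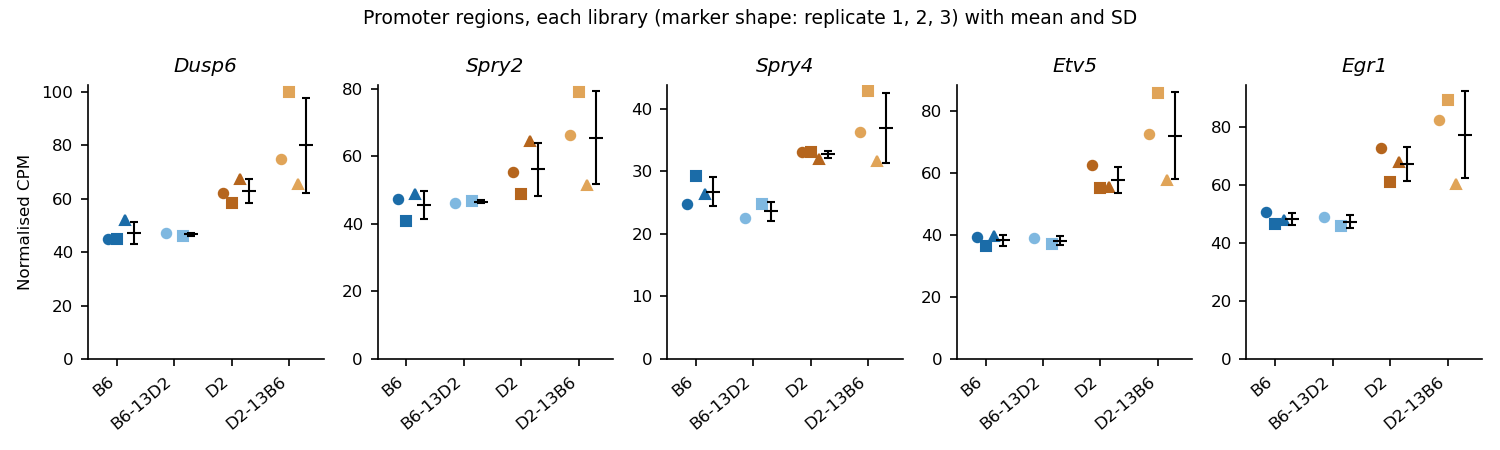
Normalised CPM (linear axes from 0) of the promoter region of each gene in all 11 libraries, by line. Points are libraries, with the marker shape giving the replicate number, and bars are the mean and SD. The D2 and D2-13B6 libraries lie above the B6 and B6-13D2 libraries in all 5 panels, and D2-13B6 replicate 2 is the highest point in each.

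The direction at the promoters depended on how libraries were scaled to each other. All 5 were higher in D2-13B6 than in B6 with TMM, with RLE size factors and in DESeq2. With total counts Dusp6, Etv5 and Egr1 were higher, and Spry2 (0.20, adjusted p = 0.105) and Spry4 (0.16, adjusted p = 0.212) were not called. With loess offsets on abundance, which remove any trend of the fold change with the mean level, no promoter was higher. Dusp6 was at -0.01, Spry4 at -0.08 and Egr1 at -0.10, Etv5 was at 0.19 (adjusted p = 0.0789), and Spry2 was lower at -0.22 (adjusted p = 0.0452). The strain difference at Egr1 became -0.03 and that at Etv5 0.11 (adjusted p = 0.839 and 0.379). In the same loess fit the 4 regions whose sequences are shown kept their direction, with log2 fold changes of D2-13B6 against B6 of 1.90 and -1.36 at Etv5, 2.18 at Dusp6 and -1.53 at Spry2.

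**Figure D2:**
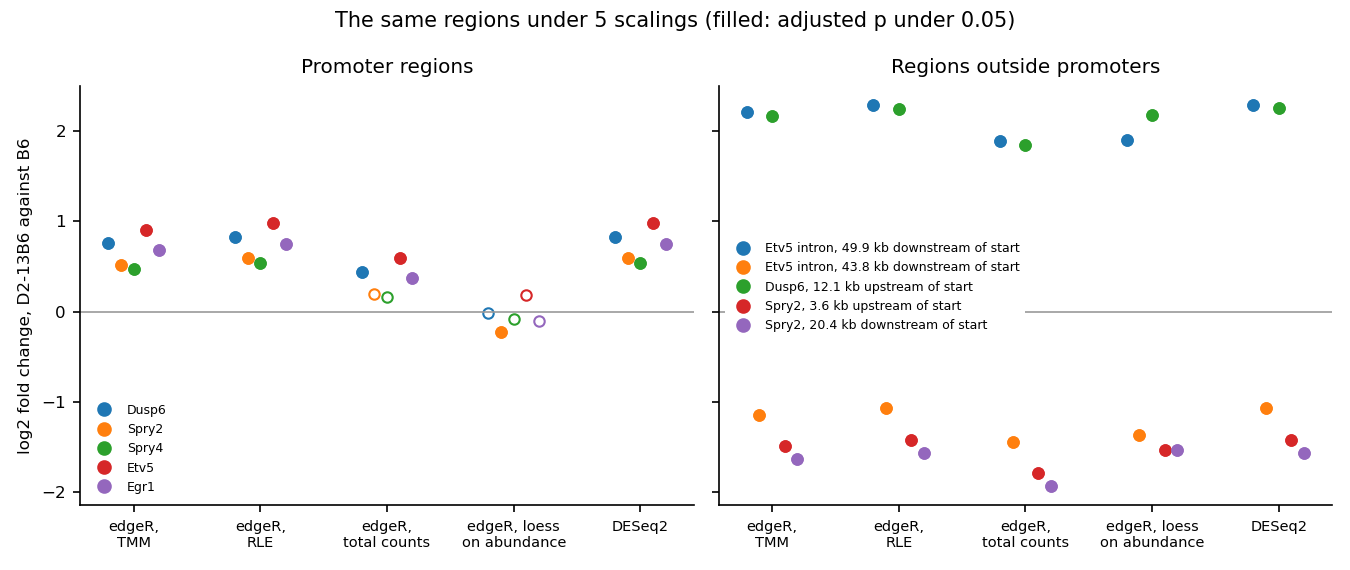
Log2 fold change of D2-13B6 against B6 (vertical axis) under 4 scalings in edgeR and in DESeq2 (horizontal axis), for the 5 promoter regions at left and 5 regions outside promoters at right. Filled points have an adjusted p under 0.05. The promoter points fall to between -0.22 and 0.19 with loess offsets, and the other regions stay near 2 or below -1 under each of the 5.

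Outside the promoters the clearest differences were in the introns of Etv5, where neighbouring regions moved in opposite directions. The region at chr16:22388958-22389806, in an intron 49913 bp downstream of the first start, measured 6.85, 8.23 and 8.27 normalised CPM in B6, 6.55 and 6.88 in B6-13D2, 16, 18.5 and 16 in D2, and 31.0, 49.7 and 27.2 in D2-13B6. The lines formed 3 levels without overlap, with B6 and B6-13D2 together at the bottom, D2 in the middle and D2-13B6 at the top. D2-13B6 was 4.64-fold above B6 (log2 2.21 ± 0.19, adjusted p = 3.59e-16), and D2 was 2.17-fold above B6 (log2 1.12 ± 0.18, adjusted p = 2.92e-06). D2 was below D2-13B6, with a log2 fold change of -1.09 ± 0.17 (adjusted p = 1.02e-06). This is the region with 2 AP-1 matches. Per kb it rose from 9.17 normalised CPM in B6 to 42.4 in D2-13B6, above the 19.1 of the Etv5 promoter in that line.

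The next region of the same intronic stretch went the other way. At chr16:22393470-22395954, 43765 bp downstream of the start, it measured 16.1, 16.2 and 13.3 normalised CPM in B6, 14.5 and 15.4 in B6-13D2, 13.3, 12.4 and 11.9 in D2, and 7.04, 7.0 and 6.53 in D2-13B6. The D2-13B6 libraries stood apart, at about the same level as each other and below every library of the other 3 lines. D2-13B6 against B6 gave a log2 fold change of -1.14 ± 0.17 (adjusted p = 3.44e-08), and that of D2 against D2-13B6 was 0.87 ± 0.17 (adjusted p = 2.83e-05). D2 against B6 was -0.28 ± 0.16 (adjusted p = 0.241).

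The broad region over a coding exon of Etv5 at chr16:22410570-22415017, which had the highest normalised CPM averaged over the 4 lines among Etv5 regions away from any start, was also low in D2-13B6. In that line the more open intron region had the higher CPM, and per kb that region was above it in every line. It measured 30.7, 30.5 and 35.1 normalised CPM in B6, 33.2 and 36.0 in B6-13D2, 34.4, 30.6 and 31.6 in D2, and 18.4, 24.2 and 18.1 in D2-13B6. Only D2-13B6 was low, and its libraries did not overlap the others. D2-13B6 against B6 was -0.67 ± 0.17 (adjusted p = 0.000726). A second start of Etv5 lies under the widest member, chr16:22400811-22407338, which also covers a coding exon. Chosen after its values were seen, it measured 38.2 ± 0.485 normalised CPM for B6, 46.2 ± 3.65 for B6-13D2, 35.7 ± 1.74 for D2 and 25.5 ± 3.53 for D2-13B6 (D2-13B6 against B6, log2 -0.58 ± 0.16, adjusted p = 0.00279). The first and second starts of Etv5 thus differed in direction between D2-13B6 and B6. Of the 23 Etv5 regions, 12 were called between these lines, 2 higher and 10 lower, with a median of -0.45.

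One more intronic region of Etv5, chr16:22426178-22427632, was called only between D2 and B6-13D2. It measured 6.87 and 6.78 normalised CPM in B6-13D2 and 4.23, 4.44 and 3.84 in D2 (log2 -0.71 ± 0.21, adjusted p = 0.00868). The call was lost without either B6-13D2 library (adjusted p = 0.0823 without replicate 1 and 0.0688 without replicate 2). The B6 libraries, at 4.42, 5.61 and 5.34, lay below B6-13D2 and overlapped D2.

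At Spry2 the regions around the gene were mostly less open in D2-13B6, unlike its promoter. The intergenic region 3642 bp upstream, chr14:105900461-105901622, measured 5.02, 5.06 and 5.87 normalised CPM in B6, 5.41 and 5.53 in B6-13D2, 4.83, 2.78 and 4.1 in D2, and 2.0, 1.82 and 1.86 in D2-13B6. The D2-13B6 libraries were the lowest and D2 was spread between them and B6. D2-13B6 was 2.8-fold below B6 (log2 -1.49 ± 0.21, adjusted p = 1.38e-08), and D2 was above D2-13B6 by a log2 fold change of 1.04 ± 0.21 (adjusted p = 6.01e-05). The difference between D2 and B6 did not pass the test (log2 -0.45 ± 0.20, adjusted p = 0.0957). This is the region with ESRRB, ETS and octamer matches.

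Of the 10 Spry2 regions, 3 were lower in D2 than in B6, where 8.8% of all regions were. All 3 are neighbouring intergenic regions downstream of the gene. The farthest, 25991 bp downstream, was at a log2 fold change of -0.66 ± 0.25 (adjusted p = 0.0492). At chr14:105875401-105876387, 20432 bp downstream, values were 2.1, 2.44 and 1.84 normalised CPM in B6, 2.96 and 3.24 in B6-13D2, 1.04, 0.964 and 1.2 in D2, and 0.727, 0.515 and 0.791 in D2-13B6. All D2 and D2-13B6 libraries were below all others. On the log2 scale this was -0.98 ± 0.27 for D2 against B6 (adjusted p = 0.0042), -1.53 ± 0.29 for D2 against B6-13D2 (adjusted p = 3.79e-05) and -1.63 ± 0.29 for D2-13B6 against B6 (adjusted p = 2.29e-06). Its neighbour at chr14:105876427-105877596 measured 1.88 ± 0.181 for B6, 2.38 ± 0.725 for B6-13D2, 1.01 ± 0.28 for D2 and 1.26 ± 0.271 for D2-13B6. It was lower in D2 than in B6 by a log2 fold change of -0.89 ± 0.28 (adjusted p = 0.0154), a call lost without B6 replicate 3 (adjusted p = 0.0688) or D2 replicate 1 (0.123). Against B6-13D2 it was -1.22 ± 0.31 (adjusted p = 0.00223), lost without B6-13D2 replicate 2 (0.164). The region in the gene body, chr14:105892834-105894090, over the coding exon and UTR, did not pass the test (7.96 ± 0.351 in B6, 9.21 ± 2.39 in D2-13B6, log2 0.21 ± 0.18, adjusted p = 0.37). Between D2-13B6 and B6, 6 of 10 Spry2 regions were called, and the promoter was the 1 that was higher.

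At Dusp6 all 3 regions upstream of the promoter were more open in D2-13B6. The intergenic region 12109 bp upstream, chr10:99250791-99251122, measured 1.33, 0.915 and 1.58 normalised CPM in B6, 1.55 and 0.598 in B6-13D2, 1.79, 2.38 and 3.27 in D2, and 6.16, 7.36 and 4.02 in D2-13B6. As at the Etv5 intron, B6 and B6-13D2 were lowest, D2 was intermediate and D2-13B6 was highest, with no overlap between these 3 levels. D2-13B6 was 4.5-fold above B6 (log2 2.17 ± 0.26, adjusted p = 7.7e-11), and D2 against D2-13B6 was -1.25 ± 0.23 (adjusted p = 1.31e-05). D2 against B6 was 0.93 ± 0.27 (adjusted p = 0.00738), a call lost without B6 replicate 2 (0.0563) or D2 replicate 3 (0.101). D2 against B6-13D2 was 1.18 ± 0.32 (adjusted p = 0.00512), lost without B6-13D2 replicate 2 (0.288) or D2 replicate 3 (0.0513).

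A region of 208 bp at chr10:99241978-99242185, in an intron of Gm34777 and 21046 bp upstream of Dusp6, had a like pattern without an AP-1 match. It measured 1.01 ± 0.238 normalised CPM for B6, 0.851 ± 0.147 for B6-13D2, 1.73 ± 0.364 for D2 and 3.99 ± 0.718 for D2-13B6. D2-13B6 was 4.06-fold above B6 (log2 2.02 ± 0.26, adjusted p = 1.05e-09). D2 was also higher than B6 (log2 0.82 ± 0.27, adjusted p = 0.0223), although not with total counts (0.0675), nor without B6 replicate 1 (0.143), B6 replicate 3 (0.0809) or D2 replicate 1 (0.162). D2 against B6-13D2 was 1.02 ± 0.33 (adjusted p = 0.0191), lost without B6-13D2 replicate 1 (0.072), B6-13D2 replicate 2 (0.199) or D2 replicate 1 (0.112). The Dusp6 region with the highest normalised CPM averaged over the 4 lines away from any start, chr10:99286581-99287577, did not pass the test (3.10 ± 0.586 in B6, 2.43 ± 0.39 in D2-13B6, adjusted p = 0.2). In D2-13B6 both upstream regions described above had a higher CPM, and per kb the region of 208 bp was above it in every line. Of the 12 Dusp6 regions, 5 were higher and 2 lower in D2-13B6 than in B6.

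Spry4 and Egr1 had smaller differences outside their promoters. The Spry4 region with the highest normalised CPM away from a start, chr18:38572061-38574882, measured 13.2, 12.9 and 9.76 normalised CPM in B6, 9.69 and 10.9 in B6-13D2, 8.61, 7.98 and 7.33 in D2, and 7.25, 5.88 and 7.74 in D2-13B6. Both D2-background lines were below all B6 libraries. The log2 fold change was -0.58 ± 0.17 for D2 against B6 (adjusted p = 0.00756, and 0.0757 without B6 replicate 1) and -0.78 ± 0.17 for D2-13B6 against B6 (adjusted p = 0.000127). Of the 10 Spry4 regions, 2 were higher and 3 lower in D2-13B6 than in B6. At Egr1 the promoter was the only 1 of 4 regions called in that comparison. The intergenic region 3745 bp upstream of Egr1, chr18:34854845-34856078, measured 11.7 ± 0.548 for B6, 12 ± 0.202 for B6-13D2, 11.6 ± 1.59 for D2 and 12.2 ± 2.62 for D2-13B6 (D2-13B6 against B6, log2 0.06 ± 0.17, adjusted p = 0.795).

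**Figure D3:**
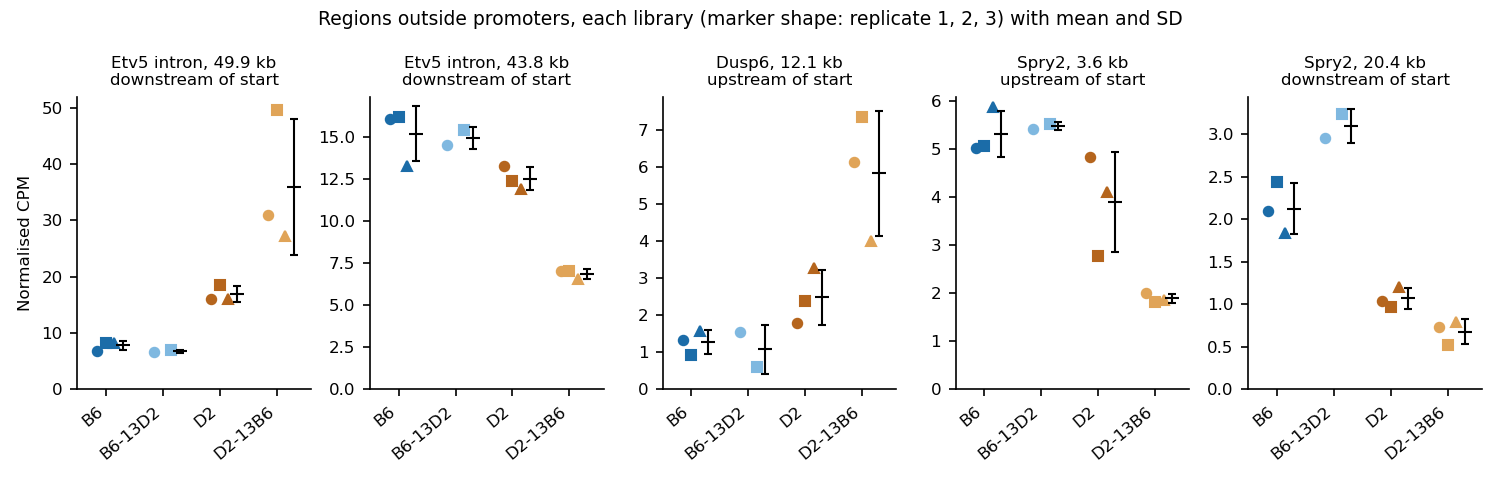
Normalised CPM (linear axes from 0) of 5 regions outside promoters in all 11 libraries, by line, with the mean and SD beside the points. The Etv5 panel at 49.9 kb and the Dusp6 panel rise from B6 and B6-13D2 through D2 to D2-13B6. In the Etv5 panel at 43.8 kb and the Spry2 upstream panel D2-13B6 is the lowest line, at 6.86 and 1.89. In the last both D2-background lines lie below the others.

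**Figure D4:**
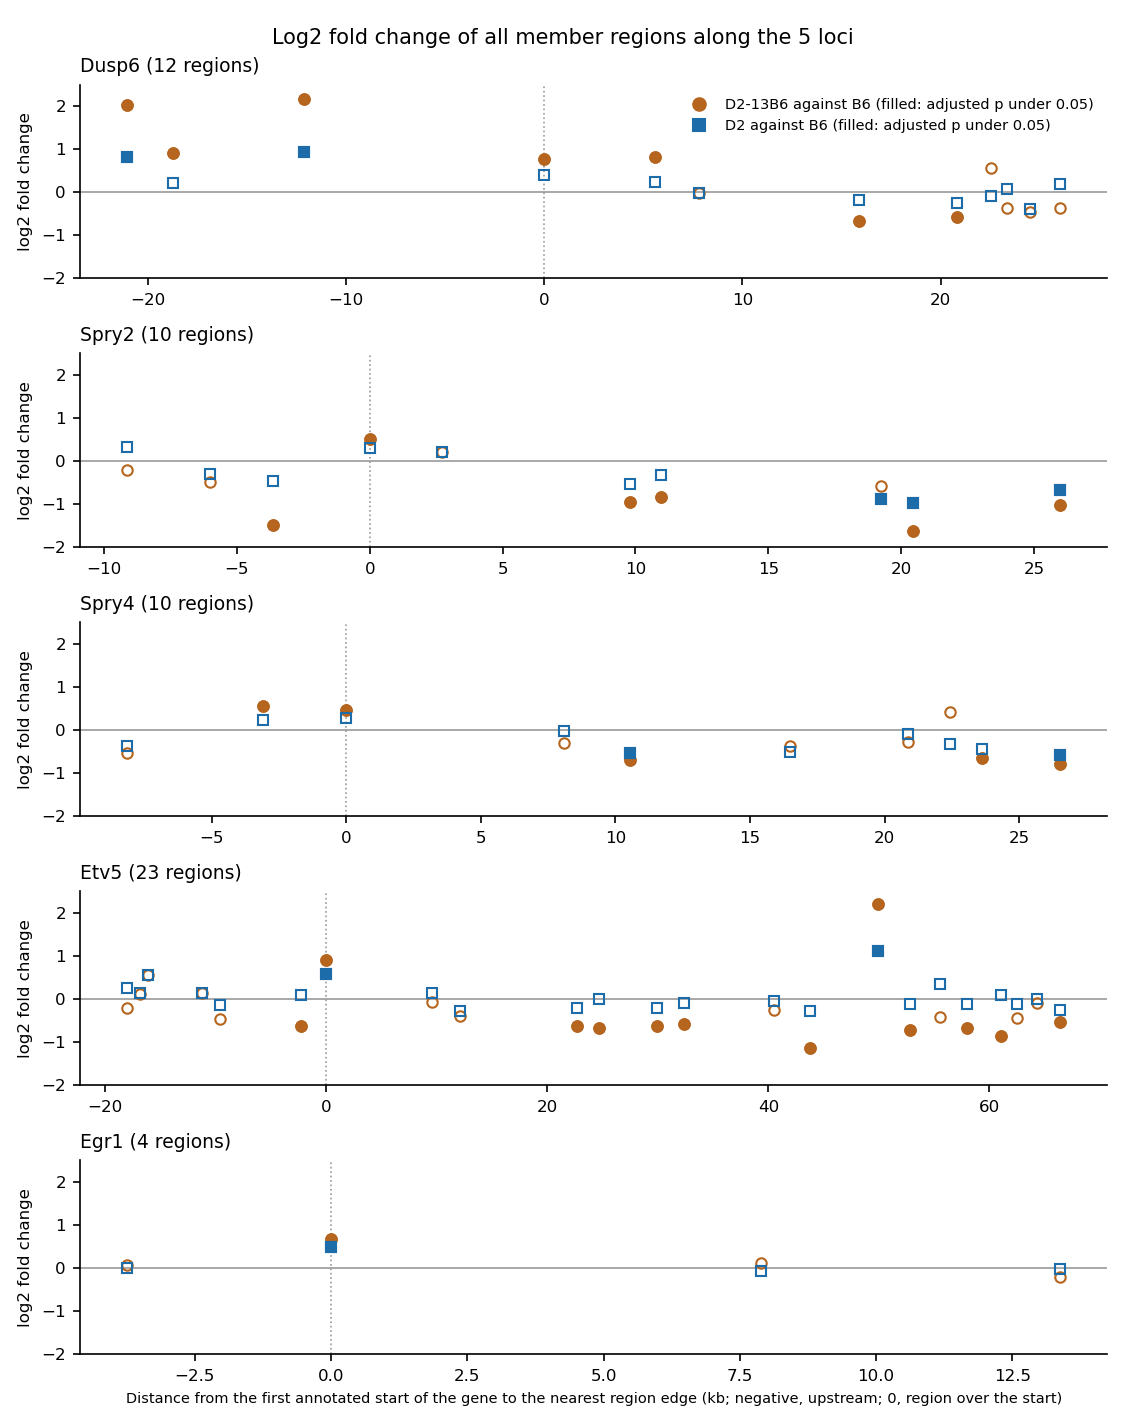
Log2 fold change of all 59 regions, 1 panel per gene, against the distance in kb from the first annotated start of the gene to the nearest edge of the region. Circles are D2-13B6 against B6, squares are D2 against B6, which use the same B6 libraries, and filled symbols have an adjusted p under 0.05. Under TMM scaling the circles over the start lie above 0 in each panel, and most filled circles at Spry2 and Etv5 away from it lie below 0.

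The sum over each locus hides these opposite movements. Over the 23 Etv5 regions, which cover 34072 bp, normalised CPM summed to 206 ± 3.35 for B6, 219 ± 6.91 for B6-13D2, 230 ± 13.1 for D2 and 220 ± 33.8 for D2-13B6. Over the 9 Spry2 regions other than its promoter (8311 bp) the sum was 29.9 ± 1.01 for B6, 34.7 ± 5.06 for B6-13D2, 24.8 ± 1.86 for D2 and 20.4 ± 2.49 for D2-13B6. Over the 11 Dusp6 regions other than its promoter (6859 bp) it was 22.1 ± 1.30, 21.5 ± 0.261, 24.1 ± 2.39 and 31.3 ± 4.58 in the same order of lines. These sums move in opposite directions at Spry2 and Dusp6, with D2-13B6 farthest from B6 in both. Counting regions, D2-13B6 had the lowest mean of the 4 lines in 33 of 59 members (39.2% of all tested regions) and the highest in 16 (30.8%). Of the 33 lowest in D2-13B6, 17 were at Etv5 and 7 at Spry2.

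The exchanged intervals, whose end markers differ between the lines, were compared on both backgrounds. On the B6 background none of the members was called, and log2 fold changes of B6-13D2 against B6 ran from -0.79 to 1.16 with a median of 0.03. With the D2 background, in D2 against D2-13B6, the 6 regions lower in D2 included 4 at Dusp6, and 6 of the 7 higher were at Etv5. The difference between both effects, tested as an interaction, was called in 3 regions (5.08%, against 6.54% of all regions), 1 higher and 2 lower (4.55% and 1.99% of all regions). It was -0.89 ± 0.25 at the less open Etv5 intron region (adjusted p = 0.0195), -1.0 ± 0.31 at the region upstream of Spry2 (adjusted p = 0.0339) and 0.89 ± 0.28 at the more open Etv5 intron region (adjusted p = 0.0387). At all 3 the effect on the B6 background was between -0.21 and 0.04. These interaction calls were not stable to leaving out single libraries. None of the 3 was called without B6 replicate 1, without D2 replicate 1 or without either B6-13D2 library, 1 was called without B6 replicate 2, B6 replicate 3 or D2 replicate 3, and 5 were called without D2-13B6 replicate 3. The call upstream of Spry2 was also lost with RLE size factors (-0.93, adjusted p = 0.0578) and in DESeq2 (-0.93, adjusted p = 0.0548). For the more open Etv5 region the value was 0.58 (adjusted p = 0.123) without D2-13B6 replicate 2.

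The promoters of other genes of the pathway were examined from a list of 55, of which 54 had a tested promoter region and Spry3 had none. The list took the most open promoter region of each gene. All promoter regions are those within 1000 bp of any annotated start, so the sets were not matched in level. Between D2-13B6 and B6, 43 of the 54 were higher and 2 lower, with a median log2 fold change of 0.72. Over all promoter regions the median was 0.15, with 37.4% higher and 17.2% lower. Between D2 and B6, 29 were higher and none lower, with a median of 0.47 against 0.16, where 24.8% of all promoter regions were higher and 6.6% lower. Between D2 and D2-13B6, 1 was higher and 10 lower in D2 (8.04% and 15.8% of all promoter regions). None was called between B6-13D2 and B6, where 0.263% of all promoter regions were. With loess offsets, D2-13B6 against B6 gave 23 higher and 7 lower, where 11103 and 8340 of all 38070 promoter regions were. D2 against B6 gave 11 higher and 5 lower, where 6291 and 4313 of them were.

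By role, the counts between D2-13B6 and B6 differed. They are those with TMM, beside 37.4% higher and 17.2% lower over all promoter regions, which were not matched in level. With loess offsets fewer of the whole list were called higher, as given above. Among ligands, Fgf4, the main FGF of embryonic stem cells, was lower (19.3 ± 1.22 normalised CPM in B6, log2 -0.95 ± 0.17, adjusted p = 2.95e-06), Fgf5, a marker of the formative state, was higher (log2 0.53, adjusted p = 0.0107), and the other 2 were not called. Among 5 receptor genes, Fgfr1 (0.80, adjusted p = 5.24e-05) and Fgfr2 (0.69, adjusted p = 0.000536) were higher and Fgfr4 was lower (-0.53, adjusted p = 0.0104). All 8 adaptor genes were higher, with Sos2, a RAS exchange factor, at 1.34 (adjusted p = 2.84e-09). In the kinase cascade 8 of 11 were higher, among them Braf at 1.14 (adjusted p = 5.1e-07) and Map2k1, which encodes MEK1, a target of the inhibitor in the medium, at 1.04 (adjusted p = 7.49e-07).

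Of 10 other feedback inhibitors with a tested promoter, 9 were higher with TMM, where 37.4% of all promoter regions were. They included the ERK phosphatase genes Dusp4 (0.82, adjusted p = 4.24e-05) and Dusp5 (1.00, adjusted p = 1.91e-06) and the Sprouty-related Spred3 (1.31, adjusted p = 1.91e-09). Dusp9 was at 0.14 (adjusted p = 0.552). Of 16 downstream transcription factor and early response genes, 15 were higher and Etv4 was at 0.28 (adjusted p = 0.165). The largest were 2 genes that encode AP-1 subunits, Fosl2 at 1.72 (23.2 ± 2.61 against 76.1 ± 17.3 normalised CPM, adjusted p = 4.82e-13) and Fos at 1.29 (adjusted p = 2.71e-09). Junb, another AP-1 gene, was at 1.09 (adjusted p = 2.46e-07). Fos was the 1 gene of the list called in the interaction (0.82 ± 0.25, adjusted p = 0.0383), where 4.89% of all promoter regions were.

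**Figure D5:**
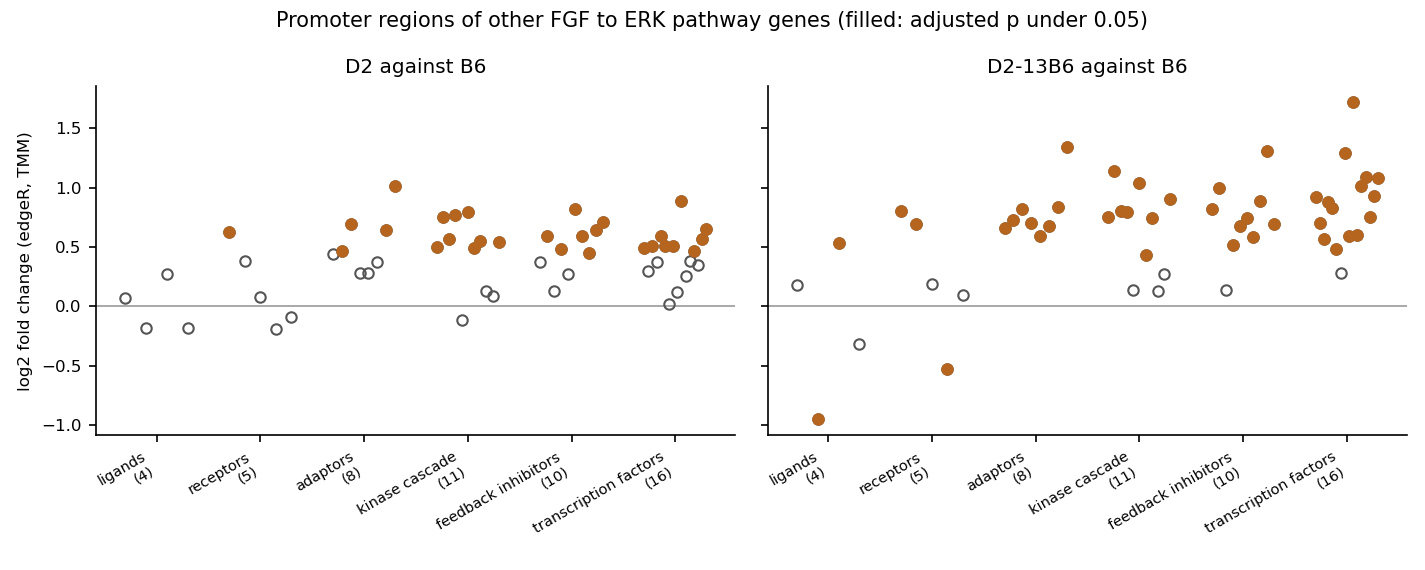
Log2 fold change (edgeR, TMM) of the promoter regions of 54 other pathway genes, grouped by role with the number of genes in brackets, for D2 against B6 at left and D2-13B6 against B6 at right. Filled points have an adjusted p under 0.05. Adaptors, feedback inhibitors and transcription factors lie above 0 in both panels, and the 2 filled points below 0 at right are Fgf4 at -0.95 and Fgfr4 at -0.53.

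Promoters of marker genes of the labelled cell type and of other cells were also compared between the lines. Between D2-13B6 and B6, 37.4% of all promoter regions were higher and 17.2% lower. The promoters of 8 pluripotency genes had open chromatin in all lines, and none of the 27 marker promoters was at 0. In B6 the means of the 8 ran from 12.4 (Dppa3) to 70.7 (Pou5f1) normalised CPM. Promoters of other cell types such as Cdx2 (34.8) and Pax6 (28.3) lay within that range, so openness alone does not tell the cell type. Between D2-13B6 and B6, 6 of the 8 were lower, led by Esrrb (-1.32, adjusted p = 5.69e-10) and Pou5f1 (-1.02, adjusted p = 6.29e-07), and Klf4 was higher (0.80, adjusted p = 4.98e-05). Their summed level was 296 to 309 normalised CPM in B6, 295 to 308 in B6-13D2, 274 to 306 in D2 and 197 to 229 in D2-13B6. Of 6 fibroblast or feeder genes 3 were higher and none lower, Col1a1 (1.33, adjusted p = 8.1e-10), Col1a2 (1.15, adjusted p = 5.26e-08) and Twist2 (0.81, adjusted p = 5.49e-05), and the sum was 53.4 to 57.9 in B6, 46.9 to 53.8 in B6-13D2, 62.4 to 70.5 in D2 and 94.0 to 124 in D2-13B6. Of 5 primitive endoderm genes 1 was higher and 2 lower (sum 87.1 to 92.2 in B6 and 80.6 to 97.1 in D2-13B6), of 4 trophoblast genes 1 was higher and 1 lower (92.1 to 99.4 and 73.1 to 106), and of 4 neural genes none was called (70.3 to 75.1 and 53.9 to 76.2). The part of other cells or of a shifted cell state in the differences at the 5 loci was not tested.

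Over the 11 libraries the 5 promoter regions varied together, with Pearson's r of log2 CPM between 0.794 for Spry2 with Spry4 and 0.984 for Etv5 with Egr1. The libraries share depth and scaling within a line, and r is given only as a description. The promoter on another chromosome most like each, among 16354 to 16722 protein-coding genes, was Mrps36 for Dusp6 (r = 0.994), Fgf5 for Spry2 (0.981), Vps8 for Spry4 (0.993), Cpsf3 for Etv5 (0.997) and Dgcr8 for Egr1 (0.999). Mrps36 lies on chromosome 13, the chromosome of the exchanged interval. Each of these r values was above those of the same member with the other 4. Each is also the highest of 16354 to 16722 candidates set against only 4. The comparison therefore cannot show whether the members vary together more than other promoters do.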

How the data were processed

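ATAC-seq was measured in 11 libraries of 4 mouse embryonic stem cell lines. The authors deposited 1 table of whole-number counts per region without normalization, per the file headers after removal of duplicate and mitochondrial reads. Trimmomatic 0.39, BWA 0.7.5, Picard 2.0.1, MACS 1.4.2, bedtools 2.9.2 and edgeR 3.34.1 are named, per the submitters' processing notes, with build mm10. Whether reads or fragments were counted, and any shift for the Tn5 offset, is not given in the sources used here.

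The members, windows, gene lists and motifs were chosen with earlier results of these data known. Annotation was GENCODE M21 and sequence was GRCm38. A promoter region lay within 1000 bp of an annotated start. edgeR 4.0.16 (R 4.3.3) fitted all 11 libraries and 4 groups with TMM, filterByExpr and robust quasi-likelihood. SE came from the F statistic, the prior count for log2 CPM was 2, and Benjamini-Hochberg adjustment ran over 246840 regions. DESeq2 1.42.0 was an alternative. The interaction is the D2 interval's effect on the B6 background minus that on the D2 background. The intervals of the lines have different end markers and were treated as the same.

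Named were, per gene, the most open promoter region, per locus the most open region away from any start (both by normalised CPM averaged over the 4 lines), and per comparison the called regions of smallest p, at most 3 each way, whose groups did not overlap (no overlap condition for the interaction). The likeness search compared log2 CPM of promoter regions. To look for copies of the same library, the chi-square per degree of freedom was taken between libraries of a line. It was 2.06 to 6.33, so none was a copy and all were kept. The spread within a line was wider than counting noise alone, most so in D2-13B6 (4.54 to 6.33, against 2.06 to 2.27 in B6). Total counts, 15198496 to 43042955 per library, set the counting precision. In simulated data for B6-13D2 against B6 over 245941 regions, the changed regions were drawn only from those above the median B6 level. Of these the test recovered 100% of 4-fold increases, 96% of decreases to 0.25, 58% of 2-fold increases and 34% of decreases to 0.5. Recovery in thinner regions was not measured. False calls made up 4%. Alternatives were RLE and total-count scaling, no filter, DESeq2, only the compared libraries, a minimum fold of 1.5, a replicate block and leaving out each library. Loess offsets on abundance were added after seeing the data.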

Additional observations from a re-analysis of the deposited data

Results flagged for a closer look

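The effect of the D2 interval differed between the backgrounds, by the interaction test, at 3 of the 59 regions. In the Etv5 intron region at chr16:22393470-22395954 the interaction was -0.89 on the log2 scale, with an effect of -0.02 on the B6 background and 0.87 on the D2 background. At chr14:105900461-105901622, upstream of Spry2, it was -1.0, with effects of 0.04 and 1.04. In the Etv5 intron region at chr16:22388958-22389806, which holds 2 AP-1 matches, it was 0.89, with effects of -0.21 and -1.09. Each line was 1 cell line and the end markers of the intervals differ, so background, interval ends and line cannot be told apart. Each of these calls was lost without some single libraries, B6 replicate 1, D2 replicate 1 and both B6-13D2 libraries among them. The call upstream of Spry2 was also lost with RLE size factors and in DESeq2 (adjusted p = 0.0578 and 0.0548).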

How the results depend on the processing

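The count of called regions stayed within 1.5 times of its value, and the 0 calls between B6-13D2 and B6 remained 0, with the exceptions given here. With a minimum fold of 1.5 the calls fell to 3 for D2 against D2-13B6 (16970 of all 246840 regions) and 1 for D2 against B6 (14629). They fell to 7 for D2-13B6 against B6 (48265), 2 for D2 against B6-13D2 (13723) and 0 for the interaction (975). In each of these the share of members was below that of all regions. With total counts the calls were 21 for D2 against D2-13B6 (68706 of all regions) and 5 for the interaction (19406). With only the libraries compared they were 16 for D2 against B6 (66522 of 244901 regions). The cause was not tested. Leaving out 1 library gave 0 to 0 calls for B6-13D2 against B6, 8 to 17 for D2 against D2-13B6, 5 to 12 for D2 against B6, 24 to 31 for D2-13B6 against B6, 2 to 14 for D2 against B6-13D2 and 0 to 5 for the interaction. Libraries that moved a count by over 1.5 times were D2 replicate 1 for D2 against D2-13B6 (8 without it), the B6 replicates 1, 2 and 3 and D2 replicate 1 for D2 against B6 (6, 5, 6 and 6), B6-13D2 replicates 1 and 2 for D2 against B6-13D2 (6 and 2), and for the interaction those named above. Of 37 called values over 18 named regions, 12 were called under every setting and 5 reversed, each with loess offsets alone: D2-13B6 against B6 at the promoters of Dusp6 (-0.01), Spry2 (-0.22), Spry4 (-0.08) and Egr1 (-0.10), and D2 against B6 at Egr1 (-0.03). Same-numbered libraries did not deviate together (r of -0.0486 to 0.0683 over 15 pairs), so the numbers do not pair them. With the replicate block the calls were 0, 13, 10, 30, 10 and 2 in the order of the ranges above, and 1 of the 37 values lost its call, the interaction at the more open Etv5 region (0.79, adjusted p = 0.0676). In the thinnest members 8 counts in a library limit what can be called.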
